A study of Mus musculus with 32 samples.

Results

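The 9 marker genes of microglia were followed through 32 RNA-seq libraries of mouse embryonic forebrain: Csf1r, Cx3cr1, Aif1, C1qa, C1qb, C1qc, P2ry12, Tyrobp and Trem2. They were taken by symbol from the count files, where all 9 members were found among 26331 named genes. The study asked how loss or excess of Kat6b, a histone lysine acetyltransferase, alters RNA in the developing cortex. Each library came from 1 embryo, as dorsal telencephalon at E12.5 or as cortex at E15.5, so age and dissection cannot be told apart. On the C57BL/6 background, Kat6b knockout (KO) and wild-type (WT) embryos gave 3 libraries per genotype from E12.5 and 5 from E15.5. On a mixed FVBxBALB/c background, embryos with the Tg(Kat6b) transgene (Tg) and their WT controls gave 4 libraries each at both ages. All libraries of the first background were sequenced as batch 2 and all of the mixed one as batch 1, which means that background and batch cannot be told apart. The transgenic line was kept on the mixed background because it did not survive on an inbred one, and the transgene's promoter is not given in the sources used here.

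Microglia are the resident macrophages of the brain. They arise from progenitors in the yolk sac, enter the forebrain early in embryonic life and depend on signalling through CSF1R for survival. The members span the receptors that microglia use to sense growth factor (CSF1R), neuronal chemokine (CX3CR1) and nucleotide (P2RY12), the lipid-sensing receptor TREM2 with its signalling adaptor TYROBP, the 3 chains of complement C1q, and the calcium-binding protein AIF1, known as IBA1. Csf1r, Aif1, Tyrobp and the C1q genes are also made by macrophages of the meninges, choroid plexus and vessel walls, whereas P2ry12 is widely used to tell microglia from them. In bulk tissue, fewer cells of a type and less RNA per cell cannot be told apart.

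Total counts per library ranged from 10424813 to 49699656. Levels are given as CPM (read counts scaled to a common library size). Kat6b itself was 3.09-fold higher in Tg than in WT libraries at E12.5 and 3.62-fold higher at E15.5. In KO libraries the count over the whole Kat6b gene was 154 ± 34.8 CPM (SD, n = 3) at E12.5 against 170 ± 20.7 (n = 3) in WT, and 174 ± 15.1 (n = 5) at E15.5 against 171 ± 17.8 (n = 5). Such a count does not check the knockout label, because reads outside a deleted part are included. The files of the 2 C57BL/6 libraries numbered 5 at E15.5 name another age in their column header, and the KO one is labelled dorsal telencephalon. They were kept at E15.5 by title. Erythroid genes summed to between 171 and 263 CPM in the C57BL/6 libraries so grouped at E15.5, number 5 included, and to between 1367 and 3931 CPM at E12.5.

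In RefSeq on GRCm38.p6 (mm10), all 9 genes had a position. The C1q genes lie side by side on chromosome 4, C1qb at 136880126 to 136886200, C1qc at 136889801 to 136892936 and C1qa at 136895916 to 136898844. Aif1 (35170986 to 35176083) and Trem2 (48346401 to 48352276) lie on chromosome 17, and Cx3cr1 lies on chromosome 9 at 120048683 to 120068296. Tyrobp lies on chromosome 7 at 30413782 to 30417582. P2ry12, on chromosome 3 at 59216271 to 59262985, lies within Med12l (59005419 to 59318446), which is transcribed from the opposite strand. The library kit does not mark strand. Whether exons of the pair overlap was not checked, and how reads from such a stretch would be counted is not given in the sources used here.

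The 250 bases upstream of 1 RefSeq start per gene were at hand for 6 of the 9 genes. The last 22 bases of the C1qc window and 31 of the Aif1 window lie inside the gene as placed above, and those of C1qc are not printed. The windows of P2ry12 and Trem2, which had the highest fold changes with age, are shown beside those of C1qb and C1qc, neighbours that moved less. Capitals mark GAGGAA on either strand, the purine-rich core bound by PU.1, the factor that specifies macrophages.
P2ry12, chr3:59262986-59263235, minus strand: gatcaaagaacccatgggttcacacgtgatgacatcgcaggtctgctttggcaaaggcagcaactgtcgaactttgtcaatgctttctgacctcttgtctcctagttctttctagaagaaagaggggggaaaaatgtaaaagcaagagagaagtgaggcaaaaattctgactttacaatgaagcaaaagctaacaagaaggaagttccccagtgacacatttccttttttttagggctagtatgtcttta
Trem2, chr17:48346151-48346400, plus strand: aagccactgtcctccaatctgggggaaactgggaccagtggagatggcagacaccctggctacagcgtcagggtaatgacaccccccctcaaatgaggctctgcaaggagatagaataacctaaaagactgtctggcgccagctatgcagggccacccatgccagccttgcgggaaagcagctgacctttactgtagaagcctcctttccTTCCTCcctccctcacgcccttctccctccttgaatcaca
C1qb, chr4:136886201-136886450, minus strand: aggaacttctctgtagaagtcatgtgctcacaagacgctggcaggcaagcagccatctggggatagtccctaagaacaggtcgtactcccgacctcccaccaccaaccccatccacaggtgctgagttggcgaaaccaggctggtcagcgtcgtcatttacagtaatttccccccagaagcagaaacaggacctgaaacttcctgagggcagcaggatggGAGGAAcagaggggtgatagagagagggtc
C1qc, chr4:136892937-136893164, minus strand: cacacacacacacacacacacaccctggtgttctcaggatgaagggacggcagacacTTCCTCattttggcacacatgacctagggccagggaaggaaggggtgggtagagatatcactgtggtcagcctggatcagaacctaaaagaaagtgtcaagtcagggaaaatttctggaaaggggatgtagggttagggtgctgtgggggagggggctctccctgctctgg
GAGGAA was found in 4 of the 6 windows (Trem2, C1qb, C1qc and Aif1, in Aif1 inside the gene), not in those of P2ry12 and Cx3cr1, and in 23.3% of 32851 promoter windows of the same length. In all, 3 more motifs were searched with it on both strands: GAGGAAG, which contains GAGGAA, was in 2 windows (10.6% of all), TATAAA in 0 (12.4%) and TGACG in 2 (17.8%). Another motif, AGGAAGT, was searched only after it had been noticed in the P2ry12 sequence, and overlaps GAGGAA and GAGGAAG. It was in 3 of the 6 windows (P2ry12, C1qb and C1qc) and in 7.69% of all, a count that cannot be read as support because the motif was picked from 1 of these sequences.

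The 9 genes were expressed at low levels for bulk tissue and were counted in every library, from 10 reads for Aif1 to 877 for Csf1r. Per kilobase of gene model (RPKM, the CPM divided by gene length), C1qc was the highest in C57BL/6 WT at E12.5, at 5.58 ± 0.889 (SD, n = 3). Tyrobp (4.19 ± 0.547), C1qa (3.80 ± 0.489) and Csf1r (3.07 ± 0.596) came next, of which Tyrobp and C1qa differed by less than their spread. C1qb and Cx3cr1 lay at 2.29 ± 0.462 and 2.09 ± 0.279 RPKM. The lowest were Aif1 (1.10 ± 0.0917), P2ry12 (1.03 ± 0.109) and Trem2 (0.844 ± 0.277), whose spreads overlapped. At E15.5 in the same background and genotype C1qc (7.96 ± 1.55 RPKM, n = 5) and C1qa (6.26 ± 1.24) were the highest, with Tyrobp (4.95 ± 0.973) after them, and P2ry12 (2.86 ± 0.350) stood beside Cx3cr1 (2.77 ± 0.245). In FVBxBALB/c WT at E15.5, P2ry12 (6.20 ± 0.762 RPKM, n = 4) stood within the spread of C1qa (6.51 ± 1.16) and C1qc (6.41 ± 0.534).

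**Figure D1:**
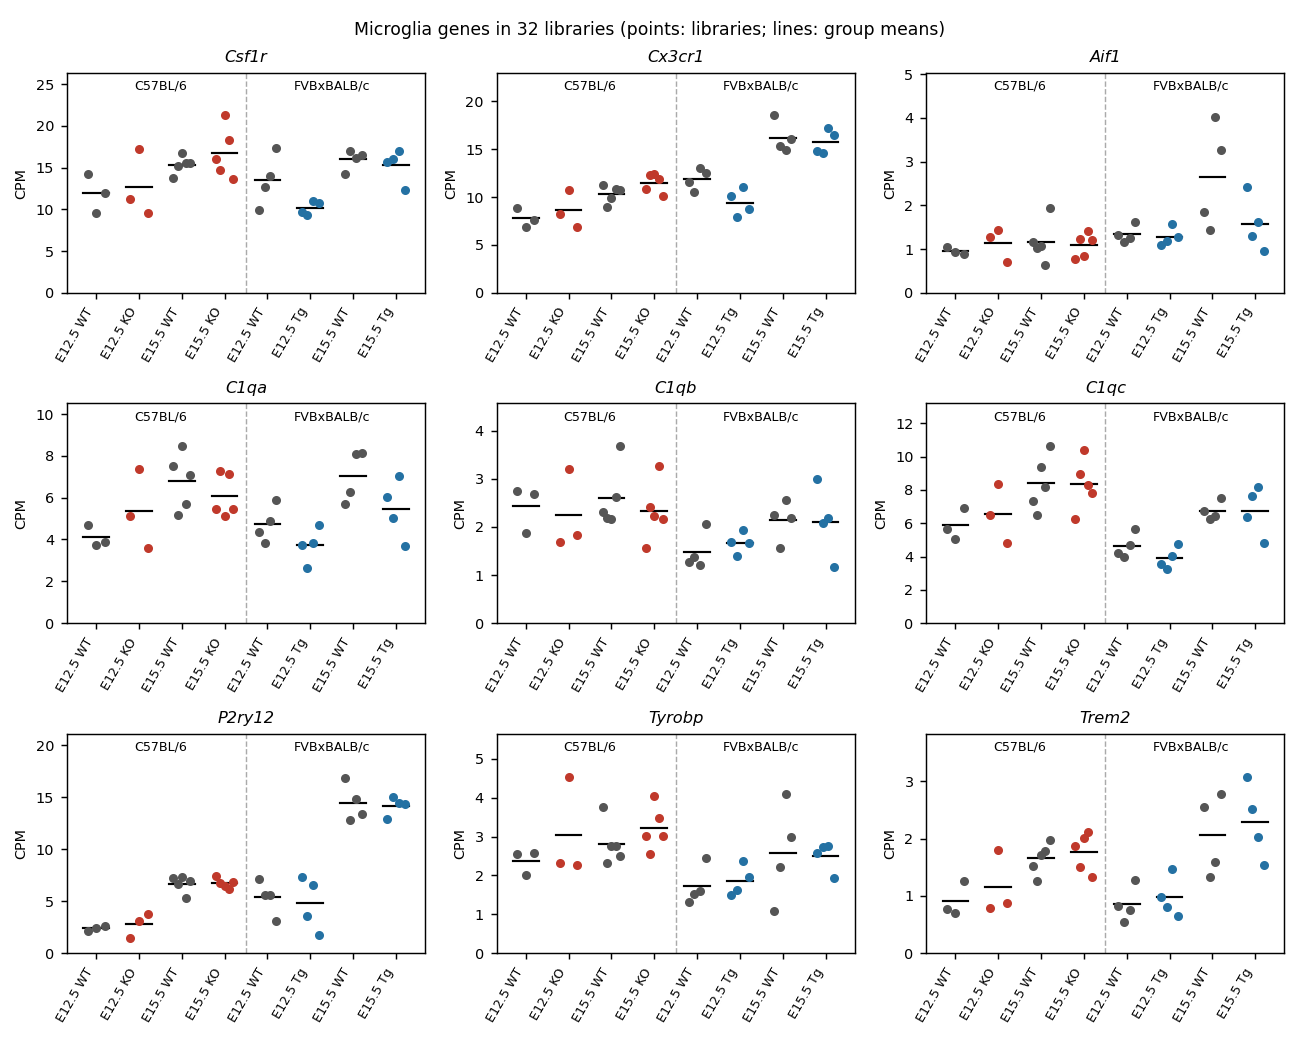
Level of each of the 9 genes in CPM (y axis, from 0) in the 32 libraries, by group (x axis), with C57BL/6 left of the dashed line and FVBxBALB/c right; points are libraries (grey WT, red KO, blue Tg) and lines are group means. P2ry12 separates the ages on both backgrounds, while WT libraries overlap KO or Tg libraries at each age.

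Between E12.5 and E15.5 the microglia genes were level or higher. In C57BL/6 WT 5 of 9 rose at an adjusted p below 0.05, namely P2ry12, Trem2, C1qa, C1qc and Cx3cr1, and all 9 had a log2 fold change above 0 (median 0.42, against -0.02 over all genes tested). In that comparison 56.8% of 16118 genes tested were called and 28.6% were higher. In KO 2 of 9 members rose, where 56.4% of genes were called and 29.4% were higher. In FVBxBALB/c WT 6 of 9 rose, where 50.1% of 15556 genes were called and 25.1% were higher. In Tg 5 of 9 rose, where 46.3% were called and 23.8% were higher. No member was called lower in any of these 4 comparisons. P-values are from edgeR's quasi-likelihood test, 2-sided, with Benjamini-Hochberg adjustment over all genes of a comparison.

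P2ry12, the nucleotide receptor that steers microglial processes toward ATP and ADP, had the highest fold change of the 9 in all 4 comparisons. In C57BL/6 WT it was at 2.13, 2.47 and 2.64 CPM in the E12.5 libraries and at 7.23, 6.66, 7.33, 5.31 and 6.94 CPM in the E15.5 libraries. In KO the E12.5 values were 1.44, 3.13 and 3.75 CPM and the E15.5 values 7.40, 6.78, 6.46, 6.16 and 6.83 CPM. The ages did not overlap in either genotype. The log2 fold change was 1.49 ± 0.23 (SE; adjusted p = 3.02e-05) in WT and 1.30 ± 0.22 (adjusted p = 9.23e-05) in KO, 2.82-fold and 2.47-fold.

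On the FVBxBALB/c background P2ry12 was at 7.13, 5.65, 5.59 and 3.13 CPM in the E12.5 WT libraries and at 16.8, 12.9, 14.9 and 13.4 CPM at E15.5. In Tg it was at 7.35, 3.58, 6.55 and 1.75 CPM at E12.5 and at 12.9, 15, 14.5 and 14.4 CPM at E15.5. The ages again did not overlap, and the E12.5 Tg libraries were the most spread of the 8 groups. The log2 fold change was 1.45 ± 0.32 (SE; adjusted p = 0.00146) in WT and 1.55 ± 0.32 (adjusted p = 0.000960) in Tg. Ordered by group mean, P2ry12 ran from 2.41 and 2.77 CPM (C57BL/6 WT and KO, E12.5) through 4.81 and 5.37 (Tg and WT, E12.5) and 6.69 and 6.72 (C57BL/6 WT and KO, E15.5) to 14.2 and 14.5 (Tg and WT, E15.5). Within each of these pairs the difference was smaller than the spread of the libraries.

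Med12l, the gene that encloses P2ry12 and encodes a Mediator subunit, did not move with it. In C57BL/6 WT the mean Med12l level was 27.0 ± 5.29 CPM in the younger libraries and 22.2 ± 3.80 CPM in the older (log2 fold change -0.27 ± 0.13, adjusted p = 0.0949). In FVBxBALB/c it fell with age, by 0.67 ± 0.23 in WT (adjusted p = 0.0213) and by 0.66 ± 0.23 in Tg (adjusted p = 0.0246) on the log2 scale.

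Trem2, the receptor for lipids and apolipoproteins, was at 0.779, 0.711 and 1.26 CPM in C57BL/6 WT at E12.5 and at 1.52, 1.26, 1.72, 1.79 and 1.98 CPM at E15.5. The highest E12.5 library met the lowest E15.5 library. In FVBxBALB/c WT the values were 0.820, 0.555, 0.756 and 1.29 CPM at E12.5 and 2.55, 1.34, 1.59 and 2.78 CPM at E15.5, without overlap. Trem2 rose by 0.91 ± 0.31 (adjusted p = 0.0182) in C57BL/6 WT, 1.22 ± 0.35 (adjusted p = 0.00757) in FVBxBALB/c WT and 1.22 ± 0.34 (adjusted p = 0.00745) in Tg, as log2 fold changes. In KO the log2 fold change was 0.63 ± 0.30 with an adjusted p of 0.0791. Tyrobp, the adaptor through which TREM2 signals, was not called in any of the 4 comparisons with all libraries, with log2 fold changes of 0.25 ± 0.24, 0.11 ± 0.24, 0.57 ± 0.31 and 0.43 ± 0.32 in C57BL/6 WT, KO, FVBxBALB/c WT and Tg.

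Cx3cr1, the receptor for the neuronal chemokine CX3CL1, was the other gene called higher in all 4 comparisons. It was at 8.91, 6.85 and 7.64 CPM in C57BL/6 WT at E12.5 and at 11.2, 8.94, 9.94, 10.9 and 10.7 CPM at E15.5. In FVBxBALB/c WT it was at 11.5, 10.5, 13 and 12.6 CPM at E12.5 and at 18.5, 15.4, 14.9 and 16.1 CPM at E15.5. In both WT series every E15.5 library lay above every E12.5 library, in C57BL/6 by a narrow gap. In KO the ages overlapped, with up to 10.7 CPM at E12.5 and as little as 10.1 CPM at E15.5. In WT the log2 fold changes were 0.42 ± 0.15 (adjusted p = 0.0202) and 0.44 ± 0.13 (adjusted p = 0.00791). They were 0.45 ± 0.14 in KO (adjusted p = 0.0134) and 0.74 ± 0.13 in Tg (adjusted p = 0.000153). Its ligand Cx3cl1, made by neurons, rose as well, by log2 fold changes of 0.93 ± 0.15 in C57BL/6 WT and 0.71 ± 0.17 in FVBxBALB/c WT (adjusted p = 5.44e-05 and 0.00196).

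Csf1r (chromosome 18, 61105572 to 61131139), the receptor for CSF1 and IL34, was at 14.2, 9.60 and 11.9 CPM in C57BL/6 WT at E12.5 and at 13.7, 15.2 and 16.8 CPM in E15.5 libraries 1 to 3, with libraries 4 and 5 between the last 2 of these. 1 of the E12.5 libraries lay within the E15.5 range, and the log2 fold change of 0.39 ± 0.19 was not called (adjusted p = 0.0824). In the main edgeR fit with all libraries it was called only in Tg, at 0.59 ± 0.15 (adjusted p = 0.00410). There E12.5 libraries lay between 9.33 and 11 CPM and E15.5 libraries between 12.4 and 17.0 CPM. Some alternatives that left out no library of the groups compared also called Csf1r. In C57BL/6 WT these were limma-voom (adjusted p = 0.0470) and an edgeR fit of only the groups compared (0.0337). In KO they were DESeq2 (0.0471) and edgeR with a replicate block (0.0390). In the main fit the log2 fold changes in KO and in FVBxBALB/c WT were 0.44 ± 0.18 (adjusted p = 0.0531) and 0.24 ± 0.15 (adjusted p = 0.192). Whether the change in Tg differed from that in WT is the interaction given below, which was not called.

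The 3 chains of C1q assemble into 1 molecule that tags synapses and debris for uptake, and their genes are neighbours on chromosome 4. C1qa was at 4.71, 3.71 and 3.90 CPM in C57BL/6 WT at E12.5 and at 7.49, 5.17, 8.46, 5.69 and 7.07 CPM at E15.5, without overlap. C1qc was at 5.66, 5.07 and 6.90 CPM and then at 7.32, 6.49, 9.35, 8.19 and 10.6 CPM, with 1 E15.5 library inside the E12.5 range. Their log2 fold changes were 0.74 ± 0.22 (adjusted p = 0.00961) and 0.55 ± 0.21 (adjusted p = 0.0335). C1qb, at 2.74, 1.87 and 2.69 CPM and then at 2.32, 2.18, 2.16, 2.62 and 3.68 CPM, overlapped between the ages, with a log2 fold change of 0.13 ± 0.27 (adjusted p = 0.701). In FVBxBALB/c WT the C1qa, C1qb and C1qc log2 fold changes were 0.56 ± 0.22, 0.51 ± 0.27 and 0.53 ± 0.18, of which C1qa and C1qc were called (adjusted p = 0.0450 and 0.0246). In Tg C1qc was called (0.80 ± 0.19, adjusted p = 0.00205), and in KO none of the chains was, at 0.22 ± 0.22, 0.09 ± 0.27 and 0.37 ± 0.21.

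Aif1, which encodes the actin-bundling protein used to stain microglia, was called only in FVBxBALB/c WT. It was at 1.32, 1.17, 1.26 and 1.62 CPM there at E12.5 and at 1.86, 1.43, 4.01 and 3.27 CPM at E15.5, so that 1 E15.5 library lay inside the E12.5 range. The log2 fold change was 0.95 ± 0.32 (adjusted p = 0.0202), against 0.33 ± 0.33, -0.01 ± 0.32 and 0.30 ± 0.33 in C57BL/6 WT, KO and Tg.

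**Figure D2:**
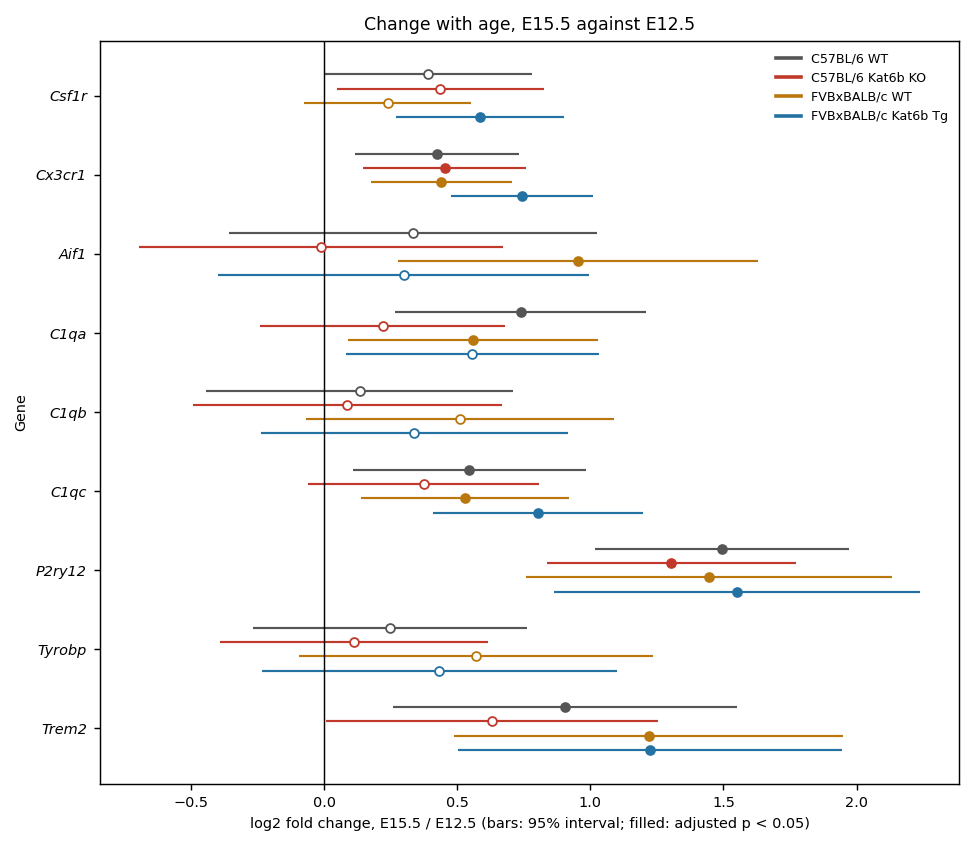
Log2 fold change from E12.5 to E15.5 (x axis) of each gene (y axis) in the 4 background and genotype combinations; points are edgeR estimates, bars their 95% intervals, and filled points passed an adjusted p of 0.05. P2ry12 lies between 1.30 and 1.55 in all 4, and Tyrobp and C1qb are open in all 4.

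Several of these calls by edgeR were lost when a single library was left out, but that of P2ry12 was kept in every alternative of all 4 comparisons. Some log2 fold changes hardly moved as the call was lost. Cx3cr1 in C57BL/6 WT was 0.41 without E12.5 library 4 (0.42 with all), and C1qa in FVBxBALB/c WT 0.57 without E12.5 library 3 (0.56). Others moved more, such as Aif1 in FVBxBALB/c WT, at 0.67 without E15.5 library 3 (0.95). The share of all genes called in each reduced fit is not reported here. In C57BL/6 WT, leaving out the E12.5 WT library 3 left 2 genes called and ended the calls of Cx3cr1 (adjusted p = 0.0839), Trem2 (0.0839) and C1qc (0.115); without library 1, Trem2 (0.0679) and C1qc (0.0799) were lost, without library 4, Cx3cr1 (0.0519), and without E15.5 library 3 or 5, C1qc (0.0606 and 0.0892). In KO, 5 genes were called without E12.5 KO library 3 and 1 without library 4, where Cx3cr1 was lost (adjusted p = 0.0874). In FVBxBALB/c WT, 3 genes were called without E12.5 library 2 or E15.5 library 4. C1qa there lost its call without any 1 of 5 libraries (E12.5 libraries 1, 2 and 3 and E15.5 libraries 3 and 4; adjusted p = 0.0739 to 0.122), C1qc without E12.5 libraries 1 or 2 or E15.5 library 4 (0.0569 to 0.0721), and Aif1 without E12.5 library 2 or E15.5 libraries 3 or 4 (0.0519 to 0.109).

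Other members gained a call by edgeR when a library was left out. Csf1r did so in C57BL/6 WT without E12.5 library 1 (adjusted p = 0.0359). In KO the 5 genes called without E12.5 library 3 included Csf1r (adjusted p = 0.00319), Trem2 (0.00662) and C1qc (0.0403), and Csf1r was also called without E15.5 library 2 or 5 (0.0488 and 0.0339). Without E12.5 library 4 of FVBxBALB/c WT 8 genes were called, among them Csf1r (0.0281) and C1qb (0.0422), and Tyrobp was called without E15.5 library 1 (log2 fold change 0.82, adjusted p = 0.0231). In Tg C1qa was called without E12.5 library 4 or E15.5 library 4 (0.0329 and 0.0198).

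To compare members within a library, 6 ratios were formed in each of the 4 combinations, after the values had been seen, and tested by an exact 2-sided permutation of the ages. By that exact permutation test the log2 ratio of P2ry12 to Csf1r was higher at E15.5 by 1.08 in C57BL/6 WT (p = 0.0179), 0.94 in KO (p = 0.0536), 1.21 in FVBxBALB/c WT (p = 0.0286) and 1.18 in Tg (p = 0.0286). The smallest p possible is 0.0179 with 3 against 5 libraries and 0.0286 with 4 against 4. After adjustment over the 24 tests none passed, the lowest adjusted p being 0.0857. The ratio of Trem2 to its adaptor Tyrobp was higher at E15.5 by 0.64, 0.53, 0.77 and 0.79 in the same order, with adjusted p between 0.0857 and 0.274 (exact permutation).

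Genes of macrophages at the borders of the brain went the other way. Of 12 such genes, 8 were tested in C57BL/6 and 6 in FVBxBALB/c. All 8 fell with age in C57BL/6 WT (median log2 fold change -2.78; 28.2% of all genes were called lower) and all 6 in FVBxBALB/c WT (median -3.50; 25.1%). Mrc1, the mannose receptor, fell in these 2 comparisons, with log2 fold changes of -2.90 ± 0.60 and -3.38 ± 0.46, and so did the chemokine Pf4, at -3.70 ± 0.80 and -3.61 ± 0.68. The scavenger receptor Stab1 fell by 1.15 ± 0.30 and 1.93 ± 0.22, and the folate receptor Folr2 by 2.15 ± 0.35 and 2.77 ± 0.53. In Tg all 6 fell (22.5% of genes called lower), and in KO 7 of 8 (27%), a count that ran from 2 to 7 when single libraries were left out. The KO count also fell to 4 with no filter on low counts and to 3 in a fit of only the groups compared. It was 3 without both C57BL/6 libraries 5 at E15.5. With no filter, 10 were called in FVBxBALB/c WT. In C57BL/6 WT the count was 3 without E12.5 WT library 1.

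Summed over the list, border macrophage genes were at 65.4 ± 29.9 CPM in C57BL/6 WT at E12.5 and 17.5 ± 3.67 at E15.5, and at 61.8 ± 28.2 and 9.38 ± 0.728 CPM in FVBxBALB/c WT. The 9 microglia genes summed to 38.8 ± 4.96 and 55.8 ± 4.74 CPM, and to 45.6 ± 5.04 and 70.0 ± 4.01 CPM, in the same groups. The list of further microglia genes given below had a lower sum at E15.5. It went from 338 ± 62.5 to 247 ± 7.70 CPM in C57BL/6 WT and from 375 ± 26.6 to 270 ± 23.3 CPM in FVBxBALB/c WT. Meningeal and mesenchymal genes were taken as a rough gauge of covering tissue, which was not measured itself. They were called lower for 10 of 12 in C57BL/6 WT and 11 of 12 in FVBxBALB/c WT. Their sum went from 1051 ± 623 to 112 ± 54.0 CPM and from 1257 ± 939 to 84.8 ± 14.5 CPM. The part of dissected meninges in the change of the macrophage genes was not tested. Monocyte and neutrophil genes summed to at most 10.5 CPM and lymphocyte and mast cell genes to at most 0.920 CPM in any library. Among erythroid genes, 9 of 10 fell in C57BL/6 WT, led by the embryonic globin Hbb-y, and 6 of 10 in FVBxBALB/c WT. Of 10 endothelial genes 6 fell and 1 rose in C57BL/6 WT, Cldn5 by a log2 fold change of 0.97 ± 0.14. Of 6 pericyte genes 1 fell and 2 rose there. Over all genes, 28.2% were called lower and 28.6% higher in C57BL/6 WT, and 25.1% lower in FVBxBALB/c WT.

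**Figure D3:**
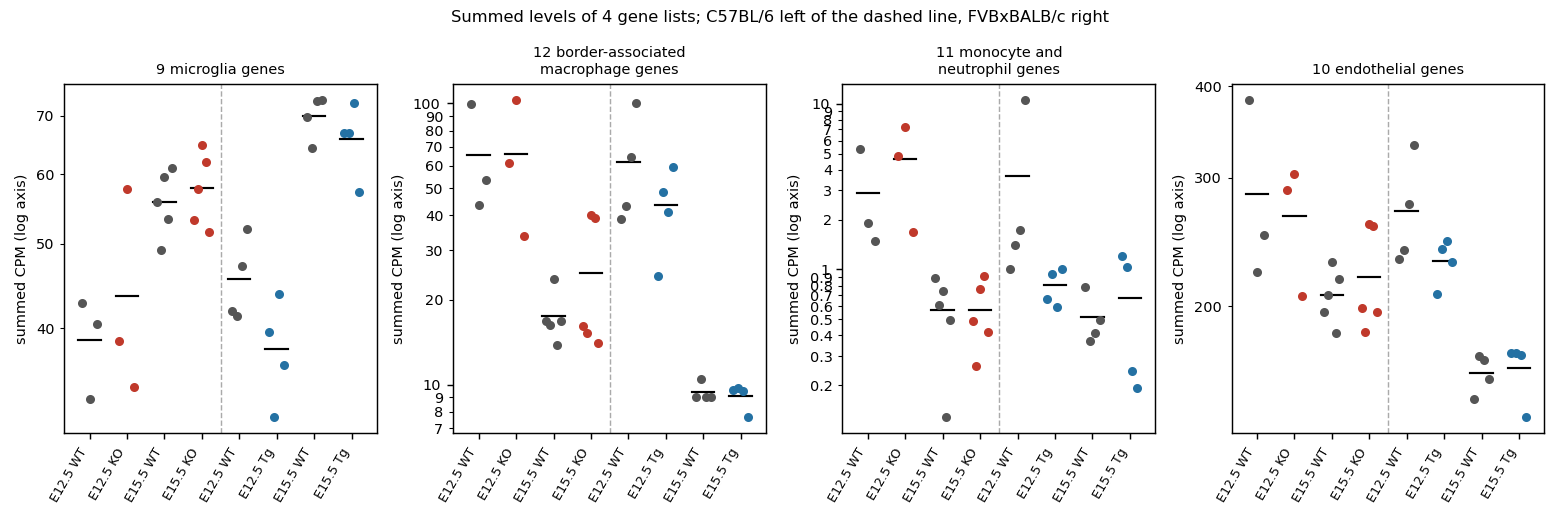
Summed CPM (log y axis, a range of its own in each panel) of 4 gene lists in the 32 libraries by group; points are libraries and lines group means. In group means the microglia genes are higher at E15.5 than at E12.5 and the border-associated macrophage genes lower. In C57BL/6 KO the libraries of the ages overlap for both lists.

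Other genes of the microglial programme went both ways. Over all genes tested, 28.6% were called higher and 28.2% lower in C57BL/6 WT, and 25.1% each way in FVBxBALB/c WT. Of 21 further microglia genes tested, 5 rose and 4 fell in C57BL/6 WT (median log2 fold change 0.13), and 7 rose and 5 fell in FVBxBALB/c WT (median -0.11; 3 fell without E15.5 library 2). The lysophospholipid receptor Gpr34 rose by 1.30 ± 0.22 and 1.12 ± 0.24 in log2 fold change. Gpr183, an oxysterol receptor, fell by 2.94 ± 0.57 and 3.09 ± 0.56, and the TGF-beta receptor Tgfbr1, which many other cells make, by 0.72 ± 0.09 and 0.76 ± 0.12. Of the 5 P2Y receptors tested, P2ry12 and P2ry14 were called in C57BL/6 WT, P2ry14 at 1.48 ± 0.47 (adjusted p = 0.0123), while P2ry1 had -0.58 ± 0.25 (adjusted p = 0.0626), P2ry13 0.59 ± 0.27 (adjusted p = 0.0738) and P2ry6 -0.01 ± 0.32 (adjusted p = 0.972). Trem2 was the only 1 of 3 TREM genes tested to rise in C57BL/6 WT, and Treml1 and Treml2, known from platelets and other blood cells, fell by 3.59 ± 0.63 and 3.56 ± 0.40. The family of 6, Trem2 included, summed to 4.45 ± 1.23 CPM in the younger libraries of that group and 2.01 ± 0.232 CPM in the older. Trem2 alone held 0.918 ± 0.302 and 1.65 ± 0.277 CPM, which leaves little for the others in the older libraries. Genes so low there pass the filter on low counts only if higher elsewhere. A fall was thus favoured, and no contrast with Trem2 is drawn.

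Among 12 transcription factors of macrophages and microglia, 5 rose and 2 fell in C57BL/6 WT, where 28.6% and 28.2% of all genes did. In FVBxBALB/c WT 5 rose and 1 fell, where 25.1% of all genes did each. The same shares of all genes apply to the lists that follow. Among those with the smallest p are genes also made by cortical neurons or progenitors: Mef2c rose by 2.52 ± 0.17 and 2.60 ± 0.15 and Maf by 0.94 ± 0.21 and 0.90 ± 0.16, while Sall1 fell by 0.99 ± 0.12 and 0.68 ± 0.13. Of 13 complement genes tested in C57BL/6 WT 3 rose and 3 fell, among them Itgam, a chain of complement receptor 3 (1.22 ± 0.28), and the inhibitor Cd59a (-2.09 ± 0.32), while in FVBxBALB/c WT 0 of 11 rose and 5 fell. Of 11 ligands and partners of the members, 2 rose and 4 fell there and 3 rose and 3 fell in FVBxBALB/c WT. Among the genes called in C57BL/6 WT were Clu, a TREM2 ligand also made by astroglia (1.75 ± 0.19), and Syk, the kinase downstream of TYROBP (-0.98 ± 0.17). Of 11 genes of proliferative-region and disease-associated microglia, 5 rose and 2 fell in C57BL/6 WT (5 rose and 1 fell of 9 in FVBxBALB/c WT), with the protease Ctsb at 0.63 ± 0.09 and the tetraspanin Cd9 at 0.77 ± 0.15.

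Within the 8 groups, after each group's mean was removed, 8 of the 9 genes varied together over the 32 libraries. The correlation of each gene with the mean of the other 8 was 0.784 for C1qb, 0.703 for C1qa, 0.663 for Trem2, 0.645 for C1qc, 0.619 for Csf1r, 0.565 for Aif1, 0.535 for Tyrobp and 0.530 for Cx3cr1. P2ry12 stood at -0.0996. Over all genes the correlation with the members' mean had a median of 0.00709 and a 99th percentile of 0.552. These are descriptions: the points share library, depth and tissue content. Between P2ry12 and Med12l the within-group correlation was 0.290 over the 14 libraries at E12.5 and -0.316 over the 18 at E15.5 (0.159 over all 32).

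**Figure D4:**
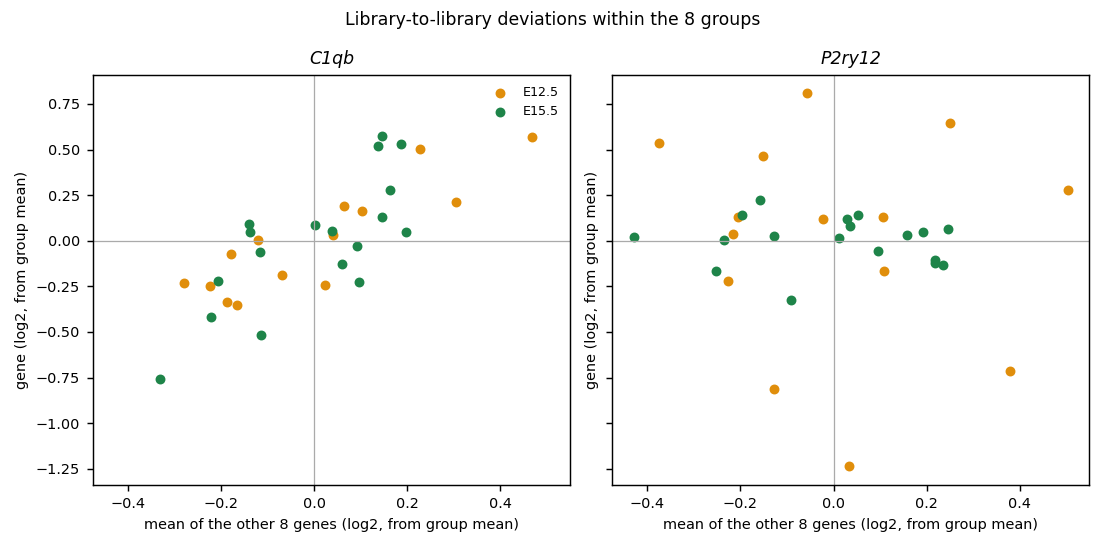
Deviation of C1qb (left) and P2ry12 (right) from the group mean (y axis, log2) against the mean deviation of the other 8 genes (x axis, log2) in 32 libraries, coloured by age. C1qb follows the other genes (r = 0.784), P2ry12 does not (r = -0.0996), and its spread is wider at E12.5.

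The genes outside the list whose within-group pattern was most like the members' mean were Gm5637 (r = 0.718), Maged2 (0.709), Ighm (0.702), Tspan9 (0.702), A130040M12Rik (0.701), Ctsb (0.694), Cldn5 (0.684), Pigs (0.675), Spi1 (0.670) and Klhl6 (0.668), of 15439 genes ranked over 32 libraries. Spi1 encodes PU.1, Ctsb a lysosomal protease of macrophages, and Cldn5 the tight-junction protein of brain endothelium. By list, the median r was 0.491 for endothelial, 0.398 for meningeal and mesenchymal, 0.377 for other microglia, 0.328 for border macrophage and -0.186 for cortical tissue genes. The part of tissue content in the covariation was not tested.

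Kat6b genotype left no call among the 9 genes. In KO against WT, 0 of 9 were called by edgeR at E12.5, where 0.0062% of all genes tested were called, and 0 of 9 at E15.5, where 0% were. In Tg against WT 0 of 9 were called at E12.5 and 0 of 9 at E15.5, with 0.0129% of genes called at each age. At an unadjusted p below 0.05 the 4 counts were 0, 0, 2 and 1, where 5.22%, 2.83%, 6.68% and 2.22% of all genes passed. DESeq2 and limma-voom also called 0 in each. For 0 of 9 members did the libraries of the 2 genotypes lie apart without overlap, in KO at E12.5 (7% of all genes did) and E15.5 (0.831%) and in Tg at E12.5 (2.81%) and E15.5 (2.52%).

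At E12.5 the KO members with the smallest p were C1qa and Tyrobp. C1qa was at 5.12, 7.36 and 3.62 CPM in KO against 4.71, 3.71 and 3.90 in WT (log2 fold change 0.37 ± 0.24, 95% interval -0.14 to 0.89). Tyrobp was at 2.31, 4.53 and 2.28 CPM against 2.54, 2.02 and 2.58 (0.35 ± 0.27, interval -0.21 to 0.91). The same KO library, number 3, was the high one for both. It lay 0.478 above its group in the mean log2 level of the 9 genes and had the highest meningeal sum of the 6 C57BL/6 libraries at this age, 2761 CPM. The members' median log2 fold change was 0.20 with this library and -0.06 without it; the part of meningeal tissue was not tested.

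At E15.5 the corresponding KO members were Cx3cr1, at 10.8, 12.3, 12.4, 11.9 and 10.1 CPM against 11.2, 8.94, 9.94, 10.9 and 10.7 (log2 fold change 0.16 ± 0.12, interval -0.10 to 0.43), and Tyrobp (0.22 ± 0.21, interval -0.23 to 0.66). The median over the 9 was 0.01, and the intervals of all 9 lay between -0.71 and 0.66. Border macrophage genes, by comparison, had 8 of 8 values above 0 and a median of 0.92 in KO, with 0 called. Their sum was 39.9 and 39.1 CPM in KO libraries 3 and 4 and between 13.8 and 23.7 CPM in the other 8 C57BL/6 libraries at this age, and meningeal genes summed to 313 and 302 CPM in the same libraries. The 9 microglia genes summed to 64.9 and 62 CPM in them, against 51.5 to 57.7 CPM in the other 3 KO libraries and 49.2 to 61.0 CPM in WT.

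In Tg at E12.5 the members with the smallest p were Csf1r and Cx3cr1. Csf1r was at 9.69, 9.33, 11 and 10.8 CPM in Tg and at 9.90, 12.7, 14 and 17.4 CPM in WT (log2 fold change -0.41 ± 0.15, unadjusted p = 0.0131, adjusted p = 0.724). Cx3cr1 was at 10.1, 7.88, 11 and 8.72 CPM against 11.5, 10.5, 13 and 12.6 (-0.33 ± 0.12, unadjusted p = 0.0162, adjusted p = 0.724). Both were lower on average with overlapping libraries. At E15.5 the leading members were Aif1, at 2.42, 1.31, 1.62 and 0.966 CPM against 1.86, 1.43, 4.01 and 3.27 (-0.72 ± 0.33, adjusted p = 1), and C1qa (-0.36 ± 0.23, adjusted p = 1).

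The change of the genotype effect between the ages was called for 0 of 9 genes in either background, with 0% of all genes called in both tests. The smallest p for age by KO belonged to C1qa (log2 difference -0.52 ± 0.31) and Aif1 (-0.35 ± 0.46), and for age by Tg to Cx3cr1 (0.30 ± 0.18) and Csf1r (0.35 ± 0.21).

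**Figure D5:**
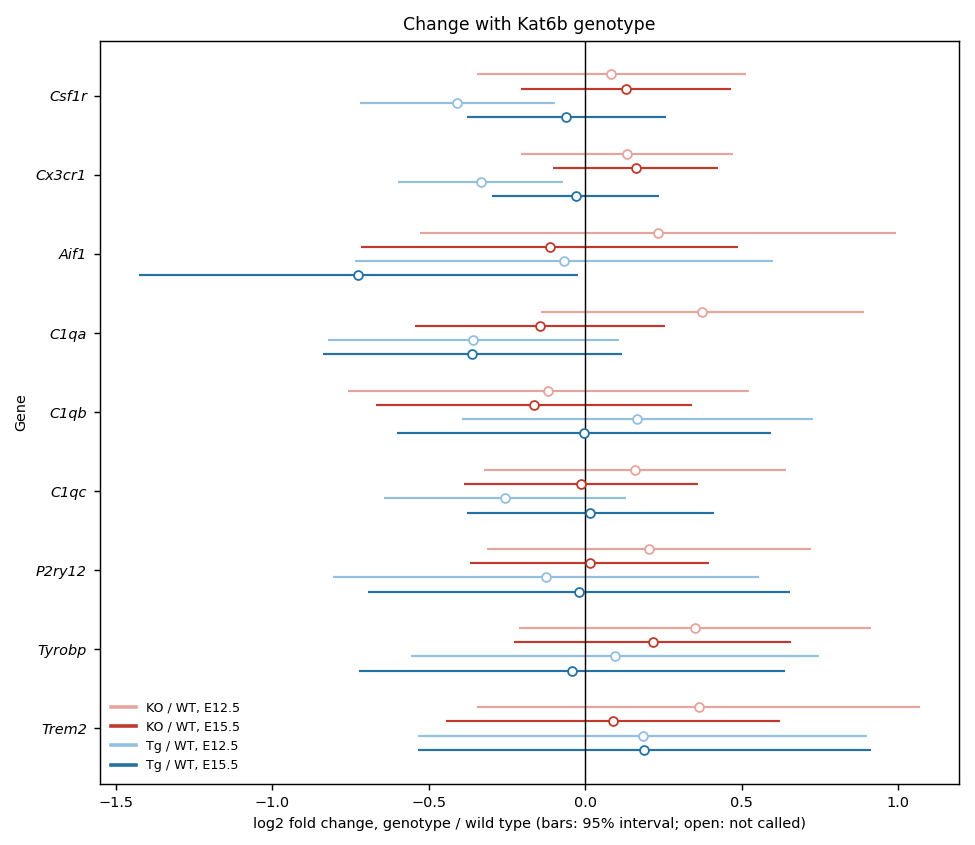
Log2 fold change of KO or Tg against WT (x axis) for each gene (y axis) at both ages; points are edgeR estimates with 95% intervals, and all are open because none passed an adjusted p of 0.05. The intervals of Csf1r and Cx3cr1 in Tg at E12.5 and of Aif1 in Tg at E15.5 do not span 0.

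Between the WT groups of the 2 backgrounds, which were also 2 sequencing batches, P2ry12 and Cx3cr1 were higher in FVBxBALB/c at both ages. At E12.5 they were the 2 members called (12.8% of 16399 genes were called, 5.59% higher and 7.19% lower), with log2 fold changes of 1.14 ± 0.32 for P2ry12 (adjusted p = 0.0162) and 0.61 ± 0.14 for Cx3cr1 (adjusted p = 0.00372). At E15.5 (25.3% of genes called, 13.9% higher and 11.3% lower) the values were 1.11 ± 0.26 (adjusted p = 0.00232) and 0.65 ± 0.12 (adjusted p = 0.000257), and Aif1 was called as well at 1.13 ± 0.30 (adjusted p = 0.00660). The P2ry12 call at E12.5 was lost without C57BL/6 WT library 3 (adjusted p = 0.0570) or 4 (0.0526) or FVBxBALB/c WT library 1 (0.0547). An edgeR fit of only the 2 groups called neither gene at E12.5 (adjusted p = 0.117 for P2ry12 and 0.128 for Cx3cr1). The log2 fold changes in that fit were 1.15 and 0.61, close to those of the main fit. The other members had log2 fold changes between -0.70 (C1qb) and 0.49 (Aif1) at E12.5.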

How the data were processed

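The authors deposited 1 file per library with raw read counts per gene and no normalization. Per the submitters' processing notes, bcl2fastq and featureCounts were used with the mm10 genome; which aligner, annotation, counting settings and versions applied is not given in the sources used here. Per the labels' protocols, total RNA went through a TruSeq v2 kit, which does not mark strand. Of 27179 rows, 848 named no gene (0.305% to 2.00% of counts) and were left out of all fits. Total counts of 10424813 to 49699656 set the precision, and 3 reads correspond to 0.0594 to 0.298 CPM.

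In each background, filterByExpr (minimum count 10, minimum total 15) left 16118 or 15556 genes, which entered 1 edgeR 4.0.16 quasi-likelihood fit (TMM scaling, robust, 12 residual degrees of freedom) under R 4.3.3. The background comparison used all 32 libraries (16399 genes). Genes were called at a Benjamini-Hochberg adjusted p below 0.05, and SE is the log2 fold change over the root of F. CPM used TMM over 32 libraries; RPKM divides it by the deposited gene length. The fitting script was tested on simulated data. No 2 of the 496 pairs of libraries held identical counts. Embryos are the replicates, also where they share a litter. In C57BL/6 at E12.5, libraries 3 and 4 of each genotype came from 1 litter. Litters lie within 1 age there, and the tests of age made no allowance for litter.

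The members and gene lists were chosen with earlier results of these data known. The named-gene rule took all 9 members, the 2 members with the smallest p in each genotype, interaction and background comparison, and from each other list up to 4 genes with the smallest p for age in C57BL/6 WT, of which the text gives a selection and some are not reported here; Med12l falls outside it and was added after values were seen, as were the ratios and 1 of the 5 motifs. Alternatives were DESeq2 1.42.0, limma-voom (limma 3.58.1), DESeq2 size factors, no filter, a minimum count of 30, other sets of libraries in the fit, a replicate or litter block, and each library left out.

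Same-numbered C57BL/6 KO and WT embryos share a litter per the labels. At E15.5 each number is a litter of its own, but at E12.5 numbers 3 and 4 share 1 litter, so that there the litter pairs the genotypes and the number does not. The correlation of same-numbered deviations ran from -0.338 to 0.381 at E12.5 (3 numbers, 2 litters) and from -0.105 to 0.374 at E15.5 (5 pairs). FVBxBALB/c numbers, and numbers across ages, share only a number.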

Additional observations from a re-analysis of the deposited data

How the results depend on the processing

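P2ry12 kept its call with age in every alternative of the 4 comparisons, and no alternative called a member between genotypes or in an interaction. When single libraries were left out, the number of members called with age ran from 2 to 5 in C57BL/6 WT, 1 to 5 in KO, 3 to 8 in FVBxBALB/c WT and 5 to 6 in Tg. Between WT backgrounds it ran from 1 to 3 at E12.5 and 2 to 3 at E15.5. A fit of only the groups compared called 0 members between backgrounds at E12.5, with log2 fold changes of P2ry12 and Cx3cr1 close to those of the main fit. Leaving out both KO libraries 3 and 4 at E15.5 left 1 called with age in KO. The cause was not tested. Some calls also changed with no library left out. C1qa with age in FVBxBALB/c WT lost its edgeR call with no filter (adjusted p = 0.0668) and at a minimum count of 30 (0.0501). In Tg C1qa gained a call by DESeq2 (0.0379), in an edgeR fit of all 32 libraries (0.0408) and with a replicate block (0.0338). Csf1r gained calls in C57BL/6 WT and KO, as given above. Some values that were not called changed sign. For age in KO, P2ry1 (0.0064 as reported) was -0.010 with DESeq2 size factors, -0.0032 with limma-voom, -0.011 with DESeq2, -0.00082 with no filter, -0.018 at a minimum count of 30, -0.014 in a fit of only the groups compared, -0.030 in a fit of all 32 libraries and -0.13 without KO libraries 3 and 4. In that last setting C1qb was -0.11 and Tyrobp -0.058, and Aif1 was 0.043 with limma-voom. P2ry6 with age was 0.12 in C57BL/6 WT and 0.0056 in FVBxBALB/c WT with limma-voom, and 0.15 in FVBxBALB/c without E12.5 WT library 4 and Tg library 1. Without both libraries 5 at E15.5, C1qb with age in C57BL/6 WT was -0.044 and Kat6b in KO against WT -0.010. Leaving out single libraries gave, for age in KO, -0.26 to 0.19 for Aif1, -0.077 to 0.44 for C1qb, -0.061 to 0.52 for Tyrobp, -0.15 to 0.20 for P2ry1 and -0.38 to 0.045 for P2ry14. For age in C57BL/6 WT it gave -0.045 to 0.24 for C1qb, -1.58 to 0.46 for Ccr2 (-0.92 as reported, positive without E12.5 WT library 1) and -0.27 to 0.15 for P2ry6, and for age in FVBxBALB/c WT -0.22 to 0.14 for P2ry6. For KO against WT it gave -0.057 to 0.53 for Tyrobp at E12.5 (0.35 as reported) and -0.0017 to 0.083 for Kat6b at E15.5. Aif1, Tyrobp, C1qb and Trem2, with as few as 10, 11, 12 and 13 reads in a library, are limited by depth.

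With the replicate number as a block, 0 members were called between genotypes in either background, as without it, and 0 with the litter as a block. With the number as a block across ages, which share only a number, 4 members were called in C57BL/6 WT (C1qc lost, adjusted p = 0.0726 by edgeR), 3 in KO, 6 in FVBxBALB/c WT and 6 in Tg. The block turned P2ry6 in C57BL/6 WT to 0.0048 and left 2 border macrophage genes called lower in KO. In FVBxBALB/c the paired deviations correlated from -0.106 to 0.589 at E12.5 and from -0.125 to 0.0834 at E15.5, and 1 of 4 pairs at each age correlated best with its own number.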
